A study of Homo sapiens with 3 samples.

Results

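The connexin genes GJB1, GJA1, GJB2, GJB5, GJA4, GJA5 and GJA7 were examined in 1205Lu, a human melanoma line obtained from a lung metastasis that WM793 cells formed in a mouse xenograft. They were chosen by symbol, with GJB1 in view because earlier results of these arrays had singled it out, and all 10 probes that the array names with these 7 symbols were kept (of 41000 probes for 30982 named genes). The levels of GJB1 are therefore a description. The 3 populations were the original monolayer (OM; 14 days in RPMI-1640 with 10% FCS), the melanoma bodies (MB; 14 days as bodies in hESC medium, DMEM F-12 with 20% KO serum replacement) and the new monolayer (NM; bodies after 14 days in hESC medium, returned to RPMI-1640 with 10% FCS for 10 days, with leftover 3D bodies taken away before lysis). Each population was 1 RNA on 1 Agilent 1-colour array, all 3 on 1 slide, so no test across samples was possible and medium, growth form and culture cannot be told apart.

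Connexins are membrane proteins that assemble into hemichannels, and hemichannels of touching cells dock into gap junctions, through which ions and small metabolites pass from cell to cell. GJA1 encodes connexin 43, the most widely used member, GJB2 encodes connexin 26 of the inner ear and epithelia, and GJA7 (now named GJC1) encodes connexin 45. GJB1 encodes connexin 32, which is made by hepatocytes and by myelinating Schwann cells, and its mutations cause the X-linked form of Charcot-Marie-Tooth neuropathy. GJA4 (connexin 37) and GJA5 (connexin 40) are best known from vascular endothelium, and GJB5 (connexin 31.1) from skin.

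Probe identity mattered here, because GJB1 and GJA1 were each read by 2 probes, which agreed for GJB1 and did not for GJA1. The GJB1 probes start 458 bases apart on chromosome X (hg17), the brighter at chrX:70227766-70227825 and the other at chrX:70227308-70227367, both on the plus strand. The GJA1 probes start 1148 bases apart on chromosome 6, the brighter at chr6:121812026-121812085 and the other at chr6:121810878-121810938. The probes are 60 bases long. The other GJB1 probe and the GJA7 probe are shown whole, and of the brighter GJB1 probe and both GJA1 probes the first 30 bases are shown, so that the transcripts behind the values can be identified. No part is in capitals, since no position within a probe was measured apart from the rest.
GJB1, other probe: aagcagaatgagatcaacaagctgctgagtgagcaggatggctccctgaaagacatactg
GJB1, brighter probe, first 30 bases: cctgtgctgtcagataccctgtttctggag
GJA1, brighter probe, first 30 bases: agtactgtaaacaggctttagtcattaatg
GJA1, other probe, first 30 bases: tggagaagaaaaaaggtgctgtagaaagtg
GJA7, only probe: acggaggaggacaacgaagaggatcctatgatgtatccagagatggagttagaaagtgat

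Signals are given as deposited, in arbitrary units (a.u.), and folds after scaling to the mean signal of 3 housekeeping genes (GAPDH, ACTB and HSP90AA1), which put MB at 0.978 and NM at 0.877 of OM. An array had 26516 to 29126 probes that the scanner software marked as well above background. Where the dimmer array lacked this mark, the fold is a lower bound ("at least"), taken against that array's floor, which is its dimmest marked signal (20.9 a.u. for OM, 19.4 for MB, 29.1 for NM), or against the probe's own signal if that was higher. Among probes printed in 10 spots and above 100 a.u., the SD of a single spot's log2 ratio was 0.07 in each comparison, a 1.05-fold difference, and between 30 and 100 a.u. it was 0.20 to 0.22. This spread is technical and holds no variation between cultures. In bulk RNA, fewer cells with a transcript and less of it per cell cannot be told apart. Among 8 melanocyte markers, the lineage factors SOX10 and MITF and the calcium-binding protein S100B were well above background on all 3 arrays, as were the pigment genes SILV and DCT. MLANA was above background in OM and MB, and TYR and TYRP1 were not on any array.

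GJB1 was brightest in MB and dimmest in NM with both probes. The brighter probe read 235 ± 23.9 a.u. (± the error the scanner software assigns to the spot) in OM, 2081 ± 208 in MB and 60.15 ± 8.52 in NM. The other probe read 58.5 ± 8.29 a.u. in OM, 470.2 ± 47.3 in MB and 14.6 in NM, where it was not well above background. On either probe the MB reading lay far outside the software errors of the other arrays, and OM lay between MB and NM. After scaling, MB exceeded OM 9.06-fold on the brighter probe and 8.22-fold on the other, with software errors of 14.3% and 17.4% of these folds. MB exceeded NM 31.1-fold on the brighter probe and at least 14.5-fold on the other. NM was 3.43-fold below OM on the brighter probe and at least 1.76-fold below on the other. Normexp background correction was run with 50 a.u. added to every signal, which by itself lowers the fold of a dim signal. With it the folds were smaller. The brighter probe gave 14.5 for MB over NM and 2.03 for OM over NM, and the other probe 3.97 for MB over OM.

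These GJB1 differences lay at the edge of the array. Of 20692 genes well above background on both MB and OM, 28 (0.135%) had a larger ratio of MB to OM, and of 19327 measured on both MB and NM, 7 (0.0362%) had a larger ratio. In NM over OM, 1.00% of 19396 genes lay lower. On the log2 scale the brighter probe stood at 3.18 (MB over OM), 4.96 (MB over NM) and -1.78 (NM over OM), while the medians of all genes were 0.08, -0.00 and 0.09. The comparisons share arrays and are not independent of each other.

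**Figure D1:**
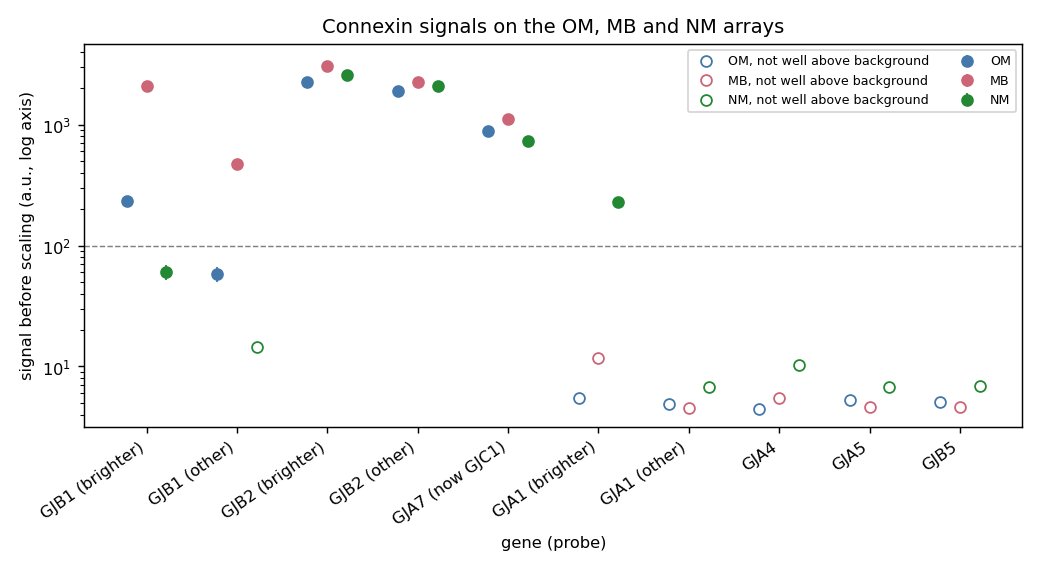
Signal before scaling (a.u., log axis) of all 10 probes of the 7 connexin genes on the OM, MB and NM arrays. Filled symbols are well above background and open symbols are not, bars are the software error of the spot or, for the GJB2 probe printed in 10 spots, the SD over spots (most are smaller than the symbol), and the dashed line marks 100 a.u. GJB1 separates by array on both probes, GJB2 and GJA7 lie close together, and GJA1 is filled only for NM on 1 of its 2 probes.

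GJA1 was well above background in NM alone, and only on its brighter probe. The brighter probe read 5.48 a.u. in OM and 11.7 in MB, neither well above background, and 227 ± 23.4 in NM. NM was thus at least 12.4-fold above OM and at least 13.04-fold above MB on this probe. The other GJA1 probe read 4.94, 4.55 and 6.75 a.u. in OM, MB and NM, not well above background on any array. The NM value of GJA1 therefore rests on 1 spot, which the software did not mark as an outlier (pixel mean 319 and median 309 a.u.). GJA1 was no longer counted at 5-fold in either comparison when normexp, with its added 50 a.u., replaced the software's background subtraction. When both probes were averaged, it was counted at neither 2-fold nor 5-fold. Counting also required a minimum signal on the brighter array. With normexp the 2-fold counts stayed at 1 in both comparisons, so GJA1 met that minimum and its fold was below 5-fold. For the averaged probes the counts do not tell a smaller fold from a signal below that minimum.

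Other spots behaved like it. On NM, 62 of 41000 probes (0.151%) were above 100 a.u. while not well above background on the other arrays, and for 15 of them the array holds another probe of the same gene, which was well above background on NM in 7. For spots bright on OM alone or MB alone, such a second probe was above background there in 4 of 10 and 17 of 28. Another such spot lay within 2 rows and 2 columns for 29 of 62 on NM, 20 of 39 on OM and 37 of 83 on MB. The GJA1 spot was among the 29 on NM. Its neighbour, 1 row and 1 column away, carries the probe of MGC39821 and read 4.66, 3.93 and 204 a.u. in OM, MB and NM. The endothelial markers TEK and CLDN5 were also well above background on NM alone (203 and 101 a.u.), while CDH5 and TIE1 were not above background on any array. VWF (185, 390 and 95.6 a.u. in OM, MB and NM) and ESAM were above it on all 3, PECAM1 in MB alone (87.7 a.u.) and KDR in OM alone. Of 8 endothelial markers, 3 were well above background in OM, 3 in MB and 4 in NM, and their summed scaled signal was 295, 580 and 547 a.u. Of 5 fibroblast markers, 1 was above background in OM, 2 in MB and 1 in NM. PDGFRA was above it on all 3 arrays (5519, 9882 and 3174 a.u. in OM, MB and NM). DCN was above it in MB alone (26.8 a.u.), and COL1A1, COL1A2 and LUM on none. The summed scaled signal of this list was 5558, 10163 and 3680 a.u. The part of slide position or of other cells in the GJA1 value was not tested.

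GJB2 was measured on all arrays and varied little. Its brighter probe (chr13:19660258-19660317) read 2239 ± 224 a.u. in OM, 3027 ± 303 in MB and 2566 ± 257 in NM. The ratio was 1.38 for MB to OM, 1.06 for MB to NM and 1.31 for NM to OM, with a software error of 14.1% on each fold. Its other probe (chr13:19659915-19659974) is the only one of the 10 that was printed in 10 spots, so its spread over spots could be measured. On the scaled values it gave 1885 ± 48.2 a.u. (SD over 10 spots) in OM, 2316 ± 55.1 in MB and 2377 ± 79.3 in NM. The spots ran from 1810 to 1947 a.u. in OM, 2236 to 2382 in MB and 2241 to 2517 in NM. They repeat 1 hybridisation per population, so these ranges hold no variation between cultures. MB was 1.23-fold and NM 1.26-fold above OM on this probe. With spike-in scaling the MB over OM difference of the 10-spot probe vanished (log2 -0.01), and the sign of MB over NM for GJB2 depended on the scaling (log2 -0.09 to 0.24 on the brighter probe).
GJB2, brighter probe, first 30 bases: gtcatagcacctaacaacattgtagcctca
GJB2, 10-spot probe, first 30 bases: attctgttgattaaagatgagctttgtcta

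GJA7 read 884 ± 88.5 a.u. in OM, 1116 ± 112 in MB and 725 ± 72.7 in NM on its single probe (chr17:40238265-40238324, minus strand). Its ratio was 1.29 for MB to OM, 1.38 for MB to NM and 0.93 for NM to OM. The order MB, OM, NM is that of GJB1, but 28.3% of genes had a larger ratio of MB to OM and 26.7% a larger ratio of MB to NM.

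GJB5, GJA4 and GJA5 were not well above background on any array. GJB5 read 4.61 to 6.93 a.u., GJA4 4.41 to 10.2 and GJA5 4.59 to 6.78, so no ratio is given for them. Markers of skin and vessel wall were present in part. Of 9 keratinocyte markers, 4 were well above background in OM and 2 each in MB and NM. KRT10 and KRT14 were above it on all 3 (KRT14 at 213, 373 and 118 a.u. in OM, MB and NM). TP73L and LOR were above it in OM alone, and KRT5, KRT1, IVL, DSG3 and DSC3 on none. The summed scaled signals of 37418 to 40718 a.u. were nearly all KRT10, at 39103, 40289 and 37219 scaled a.u. in OM, MB and NM. Of 6 mural and smooth muscle markers, ACTA2, PDGFRB and RGS5 were well above background on every array (summed signal of the list 4117 to 6318 a.u.), and MYH11, CNN1 and DES on none. Neighbours of a member were read as well. In the group of GJA3, GJB2 and GJB6, within 79.8 kb of chromosome 13, GJB2 alone was above background.

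By count, 4 of the 7 genes were well above background on some array and 3 (GJB1, GJB2 and GJA7) on all. A gene was counted as higher or lower at 2-fold or 5-fold when the brighter array exceeded 100 a.u., and this minimum was met by 3 of the 7 genes for MB over OM and by 4 for the other comparisons. For MB over OM, GJB1 was higher at both folds and none was lower, against 6.76% of 17813 genes higher and 4.22% lower at 2-fold and 1.04% and 0.691% at 5-fold. For MB over NM, GJB1 was higher and GJA1 lower at both folds, against 13.7% higher and 10.4% lower at 2-fold and 2.88% and 1.67% at 5-fold. For NM over OM, GJA1 was higher at both folds (background 4.36% at 2-fold and 0.763% at 5-fold), and GJB1 was lower at 2-fold (5.98%) but not at 5-fold (0.997%). With 1 call at most in a direction, these counts describe single genes and not the family. The median log2 ratio of the 3 genes measured on all arrays was 0.47 in MB over OM, 0.47 in MB over NM and -0.10 in NM over OM.

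Of 13 other connexin genes on the array, 9 were not well above background on any array. GJE1 (now GJC3) was highest in NM, with 99.4 ± 10.9, 92.7 ± 10.1 and 463 ± 46.7 a.u. on its brighter probe, 5.31-fold higher in NM than in OM. Unlike GJA1, the rise of GJE1 in NM was seen on both probes, the other reading 20.8 (not well above background), 21.3 and 61.1 a.u., at least 3.33-fold higher in NM than in OM.

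The gene that the array calls GJC1, which is the present GJD3 and not GJA7, read 272, 240 and 255 a.u. Pannexins form channels of a related design without docking between cells. PANX1 read 1556, 1537 and 1778 a.u., PANX3 46.9, 44.7 and 44.8 a.u., and PANX2 330.5, 165 and 320.3 a.u. on their brighter probes. PANX2 was thus lower in MB, 1.96-fold below OM and 2.17-fold below NM, and its other probe showed the same direction with 1.51-fold and 1.55-fold. Over the 7 other connexins and pannexins measured on both arrays of every comparison, the median log2 ratio was -0.04 in MB over OM, -0.24 in MB over NM and 0.14 in NM over OM.

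**Figure D2:**
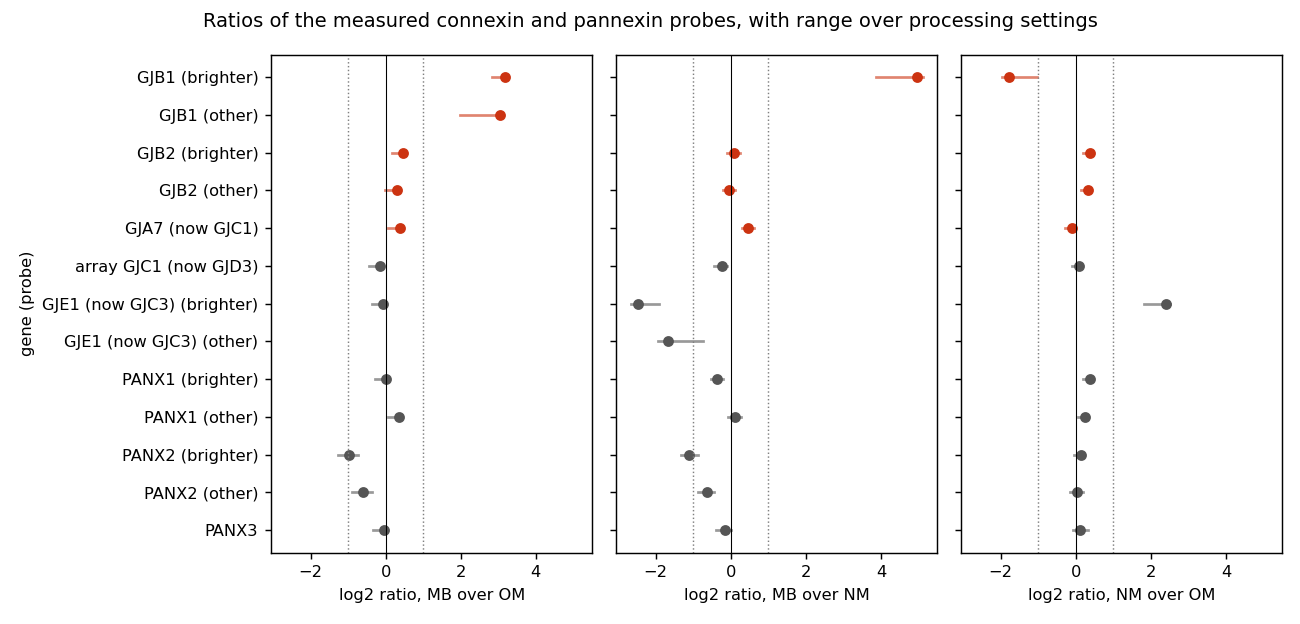
Log2 ratio of scaled signals for each probe of the listed connexins (red) and of the other connexins and pannexins named in the text (grey) well above background on both arrays, in the 3 comparisons. Points are the reported values, horizontal lines run from the lowest to the highest value over the processing settings, and dotted lines mark 2-fold. GJB1 stands right of 2-fold for MB over OM and MB over NM, GJE1 is high in NM, and most other probes lie between the dotted lines.

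The genes whose pattern over the 3 arrays was nearest to that of GJB1 were found by the Euclidean distance of the log2 ratios of MB to OM and MB to NM, among the 12238 genes with a RefSeq mRNA accession that were well above background on all 3 arrays. They were RASL12 (distance 0.29), a small GTPase of the Ras type, CPVL (0.55), a carboxypeptidase, RLBP1 (0.59), a retinal carrier of the visual cycle, SOX2 (0.76), a transcription factor of stem and neural progenitor cells, and ERBB3 (1.31), the neuregulin receptor of the Schwann cell lineage. RASL12 read 380, 3829 and 129 a.u. in OM, MB and NM, 10.3-fold and 26.6-fold higher in MB than in OM and NM. SOX2 read 559, 7974 and 287 a.u., with folds of 14.6 and 24.9. ERBB3 read 737, 4055 and 253 a.u., with folds of 5.63 and 14.4. A distance over 3 arrays describes likeness only.

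**Figure D3:**
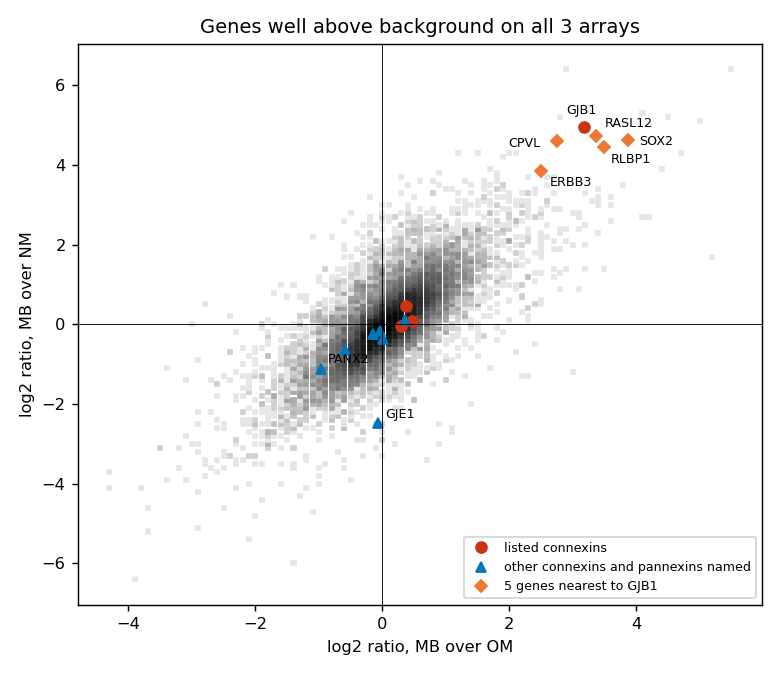
Log2 ratio of MB over OM (horizontal) against MB over NM (vertical) for 19245 genes well above background on all 3 arrays, as grey squares of 0.1 by 0.1 that darken with the number of genes. Both axes share the MB array, so the diagonal trend is partly built in. GJB1 (red, at 3.18 and 4.96) lies with RASL12, CPVL, RLBP1, SOX2 and ERBB3 (orange), the other listed connexins lie near the origin, and GJE1 lies low on the vertical axis. Blue marks the other connexins and pannexins named in the text.

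In Schwann cells GJB1 is a known target of the transcription factors SOX10 and EGR2. A promoter window of GJB1 is shown because SOX2 was among the genes nearest to GJB1 in pattern. Which start of GJB1 is used in Schwann cells, in liver or in these melanoma cells was not examined. The window is therefore not taken as the one through which SOX10 and EGR2 act in Schwann cells. Whether they act through it was not examined either. The 250 bases before 1 start of GJB1 in RefSeq (GRCh38.p14, chrX:71214989-71215238, plus strand) are printed below. Matches to ACAAT or its reverse complement ATTGT, the core that SOX proteins bind, are in capitals. There were 2 matches, and 24.6% of 35116 promoter windows of the same length hold at least 1. The related word ACAAAG, searched with CTTTGT, was not in this window and is in 13.7% of all. Neither word was in the windows of GJA1, GJB2 and GJA5. A match of these letters is a description and no evidence of binding.
GJB1 promoter: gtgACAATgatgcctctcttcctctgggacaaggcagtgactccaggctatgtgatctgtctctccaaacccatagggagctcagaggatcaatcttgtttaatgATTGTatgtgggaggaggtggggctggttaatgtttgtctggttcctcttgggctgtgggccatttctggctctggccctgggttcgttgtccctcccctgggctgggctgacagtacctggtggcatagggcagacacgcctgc

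The glial list was measured in part. Of its 14 genes, which hold the myelin genes and their regulators, 11 were well above background on both arrays of each comparison, with median log2 ratios of 0.56 (MB over OM), -0.09 (MB over NM) and 0.26 (NM over OM). None passed 5-fold in any comparison. SOX10 read 6254, 9382 and 4887 a.u. in OM, MB and NM, which is 1.53-fold and 1.72-fold higher in MB than in OM and NM. EGR2, which drives myelination, was 2.13-fold above OM in MB but 2.27-fold above OM in NM as well (987, 2051 and 1965 a.u.), unlike GJB1. POU3F2 (247, 348 and 100.1 a.u.) was 3.12-fold higher in MB than in NM and 2.17-fold lower in NM than in OM. NAB2, a corepressor of EGR2, was 1.87-fold and 2.23-fold higher in MB than in OM and NM. MBP, a compact myelin protein, was low throughout (27.6, 42.4 and 87.2 a.u.) and 3.60-fold higher in NM than in OM. Liver, the other main site of GJB1, was checked as well. Of 5 hepatocyte markers, 2 were well above background in OM and 1 each in MB and NM (summed scaled signal 204, 131 and 293 a.u.). SERPINA1 was above it on all 3 arrays (120, 82.6 and 223 a.u. in OM, MB and NM). ALB was above it in OM alone (69.3 a.u.), and TTR, APOB and FGB were not above it on any array.

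Genes whose proteins hold or modify gap junctions moved little beside GJB1. Of 16 scaffold and adhesion genes, 13 were measured on both arrays, with medians of 0.01, 0.06 and 0.01 for MB over OM, MB over NM and NM over OM. The exception was NOV (CCN3), a secreted protein that binds connexin 43, at 900 a.u. in OM, 3788 in MB and 5635 in NM. NOV was 4.31-fold above OM in MB and 7.14-fold above OM in NM, the only gene of this list past 5-fold. CTNNB1, the beta-catenin of adherens junctions, was 1.80-fold and 1.83-fold higher in MB than in OM and NM, whereas CDH1 (E-cadherin) and CLDN1 were not above background on any array. TJP1, whose protein ZO-1 binds the tail of connexin 43, read 3189, 4021 and 3285 a.u. (MB over OM 1.29-fold). All 17 genes for connexin kinases and turnover were measured, with medians of 0.26, 0.38 and 0.08. None of these passed 2-fold against OM, and SRC, the tyrosine kinase that closes connexin 43 channels, was 2.39-fold higher in MB than in NM (683, 1064 and 400 a.u. in OM, MB and NM).

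**Figure D4:**
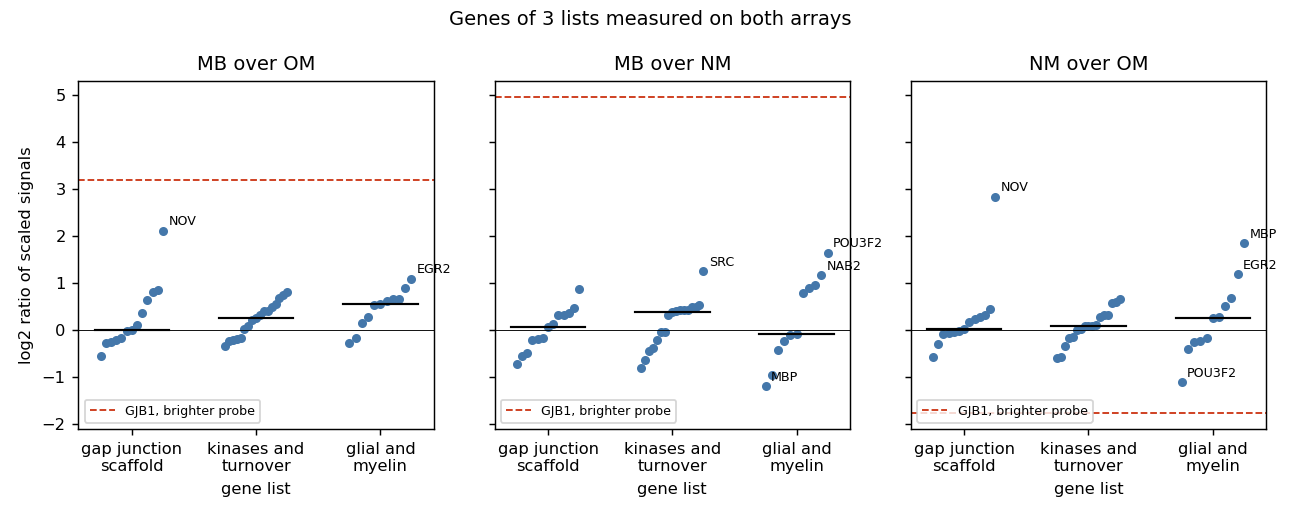
Log2 ratio of each gene of the scaffold, kinase and turnover, and glial and myelin lists measured on both arrays, in the 3 comparisons. Black bars are list medians, the dashed red line is the brighter GJB1 probe, and genes past 2-fold are named. GJB1 lies beyond every plotted gene in each comparison, above them in the panels of MB and below them for NM over OM.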

How the data were processed

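Total RNA of 3 populations was labelled with Cy3 and hybridised to 3 arrays, 1 per population. The authors deposited the intensity of each spot as Agilent Feature Extraction 9.5.3.1 gave it, with local background subtracted, on a linear scale and with no scaling between arrays. Control and outlier spots were left out, spots of a probe averaged, and arrays scaled to the mean signal of the GAPDH, ACTB and HSP90AA1 probes that are printed in 10 spots. A gene was represented by its brightest probe on average. The members and lists were chosen with earlier results of these data known. Named were all members, other connexins and pannexins above background (some genes are not reported here), the list genes with the largest ratios, and the 5 genes nearest to GJB1. No p-value could be computed, because each population has 1 array, which also limits precision. Alternatives changed the scaling, background correction, outlier and dim-signal filters, the probe rule and the source table. The code for the fold calls was run on simulated data, which checks the code only and not the variation between cultures. Coordinates are hg17. Current names came from RefSeq (GRCh38.p14) by accession, for 10 of 10 member probes. Python 3.11.15, pandas 2.3.3, numpy 2.4.6, matplotlib 3.10.9 and limma 3.58.1 (R 4.3.3) were used.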

Additional observations from a re-analysis of the deposited data

How the results depend on the processing

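GJB1 kept its direction in every setting tried: the log2 ratio of its brighter probe ran from 2.84 to 3.18 for MB over OM, from 3.86 to 5.11 for MB over NM and from -1.97 to -1.02 for NM over OM, and that of its other probe from 1.99 to 3.04 for MB over OM. Each reported count of connexins past a fold was 0 or 1 and concerned GJB1 or GJA1 alone, so the counts are not separate checks. The alternative source of the values matched 130128 of 130128 values within 0.1%, which left no room for its counts to move. Of 156 counts of connexins past a fold, 147 stayed within 1.5 times the reported count. The 9 others concerned dim signals or GJA1. Normexp background correction added 50 a.u. to every signal. With it, 0 genes were 5-fold lower in MB than in NM and 0 were 5-fold higher in NM than in OM. With the mean of a gene's probes in place of the brighter one, 0 were lower in MB than in NM and 0 higher in NM than in OM at 2-fold, and likewise 0 and 0 at 5-fold. With no minimum signal, 2 were 2-fold higher in MB than in OM, 2 were 2-fold lower in MB than in NM and 2 were 2-fold higher in NM than in OM. GJA7 ranged from 0.06 to 0.37 (log2, MB over OM). Spike-in scaling moved the median of all genes to -0.23 for MB over OM, against 0.08. Setting signals at background to the floor of their array was an alternative chosen after seeing the data. No paired analysis was possible because each population has 1 array.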
